A study of Mus musculus with 12 samples.

Results

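Conventional CD4 T cells (Tconv) from mice labelled Dcaf1-deficient were compared with Tconv from young wild-type mice, as 2 libraries against 2, chosen by sample title from a series of 12 RNA sequencing libraries. The series holds 6 groups of 2 libraries: Tconv and regulatory T cells (Treg, which hold other immune cells in check) of young wild-type, aged wild-type and Dcaf1-deficient mice. The mice of the 4 Tconv libraries compared were 2 months old, on a C57BL/6 background, and the cells came from spleen. Young and Dcaf1-deficient mice of the Treg libraries were also 2 months old, and the aged mice were more than 18 months old. Tconv were sorted as CD4+ cells by flow cytometry, while the sort for Treg added CD25. The labels do not give the allele, the promoter or cell type that drives the deletion, the sex, or whether each library came from its own animals. P-values therefore measure the spread between these libraries, which may be technical.

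DCAF1, named Vprbp in the table, is the substrate receptor of a ubiquitin ligase built on CUL4 and DDB1: it holds a protein in place so that the ligase can tag it for degradation. It is also the host factor that the HIV accessory protein Vpr binds. In T cells the protein is known for a part in growth after stimulation, and the series title ties it to Treg ageing and reactive oxygen species. Naive CD4 T cells rest and recirculate through lymphoid organs, and after stimulation they divide and take on helper programmes marked by transcription factors such as T-bet and GATA3.

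The level of Vprbp did not separate the groups by much. It was 147 and 143 CPM (counts scaled to the size of the library) in young Tconv 1 and 2, and 131 and 132 CPM in the 2 others. The groups differed by a log2 fold change of -0.14 (SE 0.14, adjusted p 0.731, edgeR on 12 libraries). Reads were summed over all exons, so a deletion of part of the gene could go unseen, and the libraries are called labelled Dcaf1-deficient, or labelled, below. T cell markers summed to 7759 and 7097 CPM in young Tconv and 7016 and 7031 CPM in the labelled libraries. Foxp3, the transcription factor of Treg, was at 47.8 and 77.9 CPM in young Tconv and 80.0 and 75.4 CPM in the labelled libraries, and Il2ra, which encodes CD25, at 31.9 and 62.8 against 48.7 and 48.6 CPM. The groups overlapped for both genes, with log2 fold changes of 0.31 (SE 0.52) for Foxp3 and 0.04 (SE 0.35) for Il2ra and adjusted p 0.834 and 0.973 by edgeR on 12 libraries.

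The groups also differed in ways other than the label. Xist, the transcript of the inactive X chromosome, was at 2.40 and 2.62 CPM in young Tconv and 1309 and 1336 CPM in the labelled libraries, and Y-linked transcripts summed to 753 and 625 against 0.725 and 0.769 CPM. Both young libraries thus read as male and both labelled libraries as female, so sex and genotype cannot be told apart within these 4 libraries. Marker transcripts of red cell precursors and neutrophils included genes called higher in the labelled libraries, and the summed levels of macrophage and B cell markers were above both young libraries with 1 and 0 markers called. Of the title tags L3, L4 and L5, whose meaning is not stated, young Tconv 1 carries L4 and the other 3 libraries L5. Totals were 18937218 to 22617023 estimated counts a library. At these totals, 3 counts in a library correspond to 0.141 to 0.164 CPM, and these floors cover counting error only.

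How many genes passed the test depended on the libraries that set the spread. With 1 spread estimated from all 12 libraries, the edgeR quasi-likelihood test called 0 of 9495 genes, or 0%, at an adjusted p under 0.05. In that fit 954 genes had an unadjusted p under 0.05 and the smallest adjusted p was 0.102. DESeq2 on the same 12 libraries called 150 genes higher, 1.7% of 8837, and 66 lower, 0.747%. With edgeR on the 4 libraries alone, 620 of 8761 genes were called higher, 7.08%, and 451 lower, 5.15%. DESeq2 on 12 libraries also called 142 of those 620 and 61 of those 451. Below, "called", "rose" and "fell" refer to edgeR on the 4 libraries alone, whose counts lead here because 12 libraries gave none; this was decided after the counts were seen. Among called genes the median log2 change was 1.14 for those higher and -0.49 for those lower, against -0.01 over all genes tested, of which 49.3% were higher.

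The 4-library calls rested on the small distance between the 2 labelled libraries. The median squared deviation per gene, in units of sampling noise, was 1.57 between the labelled libraries and 3.70 between the young ones, where sampling alone gives 0.455. Without labelled library 1, edgeR on the remaining 3 libraries called 6 genes, and without labelled library 2 it called 11. Leaving out a young library raised the calls to 2543 without young Tconv 1 and 4299 without young Tconv 2. The autosomal genes called in both fits that lack a labelled library were Ctse, Rpl29 and Trim12a, all lower; the other shared calls were Xist and the Y-linked Eif2s3y and Kdm5d. Autosomal genes made up 594 of the 620 called higher and 431 of the 451 called lower.

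Ctse, Rpl29 and Trim12a showed the same contrast in the Treg libraries, which share no library with the Tconv comparison. Ctse encodes cathepsin E, an aspartic protease of the endosome. It was at 623 and 613 CPM in young Tconv and 60.3 and 65.4 CPM in the labelled libraries (chromosome 1, a log2 fold change of -3.29, SE 0.07, edgeR adjusted p 0.000191 in 4 libraries and 0.102 in 12). In Treg it was at 485 and 453 CPM in the young and 65.5 and 103 CPM in the labelled libraries. Rpl29, a protein of the large ribosomal subunit whose gene lies close to Vprbp, was at 839 and 840.05 CPM against 42.6 and 37.8 CPM in Tconv (a log2 fold change of -4.37, SE 0.08, edgeR adjusted p 0.000159 in 4 libraries and 0.127 in 12). In Treg it was at 752 and 711.04 against 34.8 and 31.9 CPM. The ribosomal protein genes have many processed pseudogenes, and how the estimated counts divide reads among them is not given in the sources used here. Trim12a, a tripartite motif gene of the family that holds antiviral restriction factors, was at 263 and 241 against 16.5 and 14.5 CPM in Tconv (a log2 fold change of -4.01, SE 0.10, edgeR adjusted p 0.000324 in 4 libraries and 0.246 in 12). In Treg it was at 207 and 182 against 37.0 and 7.73 CPM. In Tconv the groups overlapped in none of the 451 genes called lower, these 3 included, so the lack of overlap adds nothing to the calls. In Treg the groups of the 3 genes did not overlap either, and 36.1% of all genes tested lay below both young Treg libraries in both labelled ones. With a term for sex in the fit to 12 libraries, added after the values were seen, Ctse alone was called (a log2 fold change of -3.89, edgeR adjusted p 0.0104).

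The labelled Treg libraries differ from each other in the sex they read as: Xist was at 1.40 CPM in labelled Treg 1, as in a male, and at 1677 CPM in labelled Treg 2, as in a female, while both young Treg libraries read as male. Of the 620 genes called higher in Tconv, 539 (86.9%) lay above both young Treg libraries in labelled Treg 1 and 540 (87.1%) in labelled Treg 2. Over all genes tested the shares were 41.6% and 41.3%. Of the 451 genes called lower, 415 (92.0%) lay below both young Treg libraries in labelled Treg 1 and 418 (92.7%) in labelled Treg 2, against 41.5% and 42.9% over all genes tested. These shares are a description with no test. Macrophage markers were also higher in labelled Treg, at 15900 and 19350 CPM against 257 and 5226 CPM in young Treg. So were erythroid markers, at 5836 and 12900 against 272 and 1776 CPM, and neutrophil markers, at 405 and 772 against 37.7 and 125 CPM. The part of these transcripts in the shares was not tested.

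Among autosomal genes at 4 CPM or more, leaving out markers of other cells, the 12 of smallest p in the fit to 12 libraries that were higher in the labelled libraries included genes of signalling and of cytokine response. None was called in 12 libraries, where their adjusted p ran from 0.113 to 0.203 by edgeR, and all 12 were called in the 4. Il18rap, the accessory chain of the interleukin 18 receptor, was at 15.5 and 20.9 CPM in young Tconv and 124 and 131 CPM in the labelled libraries. Its log2 fold change was 2.82 (SE 0.16, edgeR adjusted p 0.00438 in 4 libraries and 0.203 in 12). Tnfsf4, the costimulatory ligand OX40L, was at 0.235 and 0.546 CPM against 7.15 and 7.16 CPM, from 5 and 10 counts against 148 and 149. Its log2 fold change was 4.21 (SE 0.42, edgeR adjusted p 0.0122 in 4 libraries and 0.203 in 12). Both genes were picked for a small p and for groups that do not overlap, so the gap between their groups is no further support.

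Inppl1, which encodes the lipid phosphatase SHIP2, was at 22.1 and 27.2 CPM in young Tconv and 96.2 and 91.7 CPM in the labelled libraries. Gna15, a G protein alpha subunit of blood cells, was at 10.5 and 15.1 against 55.4 and 48.0 CPM. Furin, the protease that cuts many secreted precursors at basic residues, was at 72.6 and 70.2 against 148 and 131 CPM. Acot7, an acyl-CoA thioesterase, Cpd, a carboxypeptidase of the Golgi, Tbc1d2, a regulator of Rab proteins, and Osbpl5, a lipid transfer protein, rose by log2 1.63, 1.89, 2.82 and 0.70. Cd48, a receptor of the SLAM family on lymphocytes, was at 250.1 and 263 against 423 and 440.5 CPM, and Prr13, a proline-rich protein, at 104 and 113 against 235 and 232 CPM. Phlda3, a target of p53 that restrains AKT, was at 1.04 and 0.546 against 6.67 and 5.96 CPM. All 12 also lay above both young Treg libraries in each labelled Treg library. The same held for 84.2% of genes called higher and 35.8% of all genes tested. For Inppl1 the Treg values were 34.6 and 45.3 CPM in the young and 119.5 and 132 CPM in the labelled.

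The 12 of smallest p on the lower side had adjusted p of 0.102 to 0.252 in 12 libraries and all were called in the 4, both by edgeR. Besides the 3 genes above they held Mst1, the gene of the liver-derived growth factor known as macrophage-stimulating protein, at 9.37 and 9.51 CPM in young Tconv and 0.0483 and 0.289 CPM in the labelled libraries. The values rest on 199 and 174 counts against 1 and 6, and the log2 fold change was -5.75 (SE 0.57, edgeR adjusted p 0.0122 in 4 libraries and 0.245 in 12). It was -4.99 without labelled library 1 and -7.43 without labelled library 2, with edgeR adjusted p of 0.151 and 0.134, and the single count lies under the floor of 3, so the size of this change is uncertain. Dusp2, a phosphatase that switches off ERK signalling, was at 529.8 and 529.7 against 253 and 234 CPM. Mrpl48, a protein of the mitochondrial ribosome, was at 34.4 and 39.0 against 3.09 and 3.61 CPM. Abhd14b, a hydrolase encoded beside Rpl29, was at 16.1 and 11.04 against 1.35 and 1.88 CPM. Ntn1, the guidance molecule netrin 1, Crebzf, a bZIP transcription factor, Lnp, a protein of the endoplasmic reticulum, and Lrrc1, a scaffold protein, had log2 fold changes of -1.30, -0.74, -0.65 and -1.05. All 12 also lay below both young Treg libraries in each labelled Treg library. The same held for 90.2% of genes called lower and 36.1% of all genes tested.

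**Figure D1:**
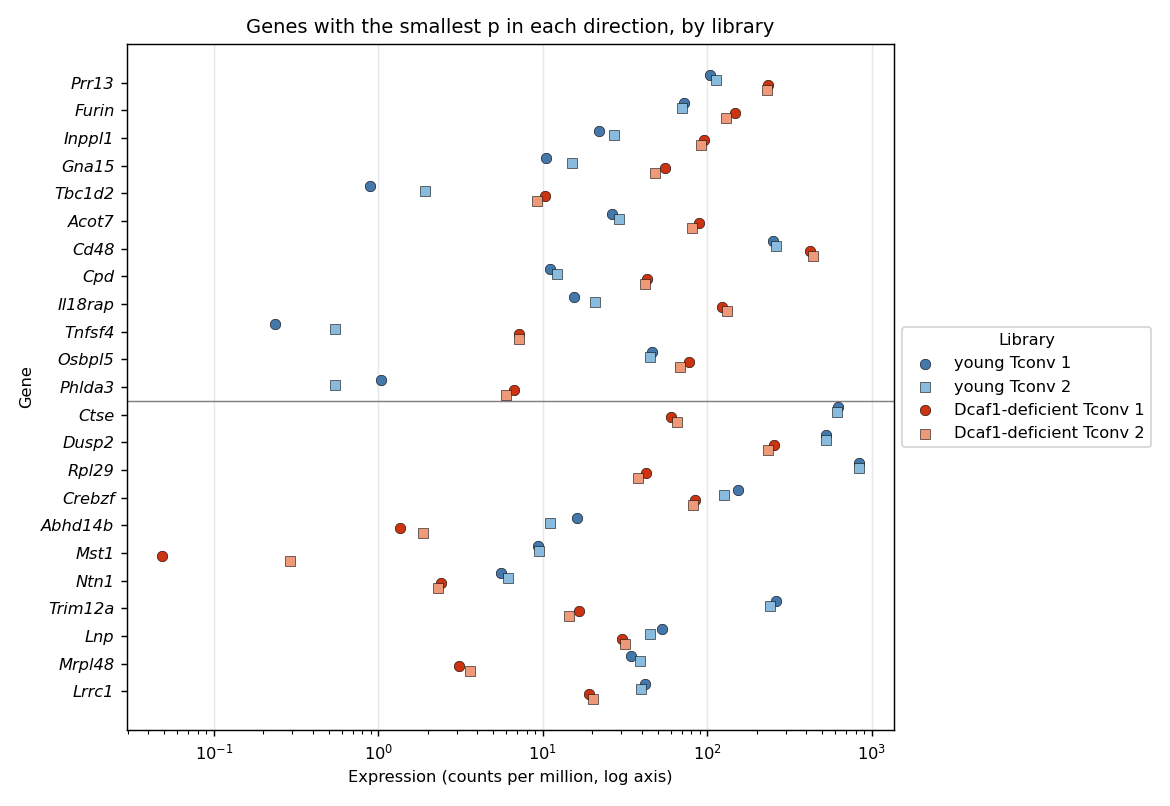
Expression of the 12 higher (above the line) and 11 of the 12 lower genes of smallest p, with 1 symbol per library on a log axis of CPM. The genes were chosen so that the 2 young libraries (blue) and the 2 labelled libraries (red) do not overlap, which the plot therefore cannot test. Mst1 rests on 1 and 6 counts in the labelled libraries.

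Genes of cell division formed the largest block of increases among the gene lists. Of 31 tested cell cycle genes 28 rose and 0 fell, or 90.3% against 7.08% of all genes, with a median log2 change of 2.02. The mean of log2(CPM + 1) over the list was 3.51 and 4.08 in young Tconv and 5.48 and 5.55 in the labelled libraries. Top2a, the topoisomerase that untangles replicated DNA, was at 41.1 and 75.2 CPM in young Tconv and 288 and 318 CPM in the labelled libraries. Prc1, a bundler of spindle microtubules, was at 17.1 and 19.3 against 58.9 and 63.5 CPM (a log2 fold change of 1.76, SE 0.11, edgeR adjusted p 0.00489 in 4 libraries). E2f2, a transcription factor of S phase entry, was at 50.7 and 59.8 against 128 and 131 CPM. Ube2c, the E2 enzyme of the anaphase-promoting complex, was at 7.39 and 10.1 against 34.1 and 34.4 CPM, and Cks2, a subunit of cyclin-dependent kinases, at 13.6 and 13.9 against 35.7 and 30.3 CPM. Young Tconv 2 lay above young Tconv 1 for many of these genes. Both labelled libraries lay above both young ones for the genes named. They did so for all 620 genes called higher, so this adds nothing to the calls, and the share over all genes tested is not given here.

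The 3 members that did not pass were Ccnb1 (3.06 and 10.3 against 29.7 and 34.3 CPM), Ccnd2 (625 and 568 against 566 and 572 CPM) and Cdk4 (134 and 142 against 150 and 158 CPM). Without labelled library 1 or 2, edgeR on the remaining 3 libraries called 0 of the 31 members. DESeq2 on 12 libraries called 7 of them higher, and 24 had an unadjusted p under 0.05 in the edgeR fit to 12 libraries. With the sex term the median change of the list was 2.17. Red cell precursors divide, and their markers summed to 151 and 295 CPM in young Tconv against 1707 and 1727 CPM in the labelled libraries; their part in the cell cycle levels was not tested. In the Treg libraries the mean of log2(CPM + 1) over the list was 4.09 and 4.91 in the young and 6.30 and 6.16 in the labelled.

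Genes of DNA synthesis and repair showed 14 increases and 1 decrease among 29 tested members (48.3% and 3.45%, median log2 change 0.53). Rrm2, the ribonucleotide reductase subunit that supplies deoxynucleotides, was at 14.1 and 21.8 CPM in young Tconv and 94.9 and 97.0 CPM in the labelled libraries. Uhrf1, which passes DNA methylation on to the new strand, was at 18.8 and 21.6 against 70.4 and 70.8 CPM (a log2 fold change of 1.82, SE 0.11, edgeR adjusted p 0.00469 in 4 libraries). Lig1, the DNA ligase of lagging strands, rose by log2 0.85. The 1 decrease was Atm, the kinase that signals double-strand breaks, at 340.3 and 306 against 244 and 255 CPM. Of 18 tested kinesins, the microtubule motors, 4 rose and 1 fell (22.2% and 5.56%, against 7.08% and 5.15% of all genes). The mitotic Kif2c and Kif18a were higher, as was Kif5c, and Kif21b was at 1837 and 1610 against 1260 and 1201 CPM.

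A sequence motif known from promoters of genes of the G2 and M phases of the cell cycle, TTTGAA on either strand, was sought in the RefSeq promoter windows on GRCm38.p6, each of 250 bases before to 50 after a gene start. It was present for 14 of the 27 cell cycle members with a window, and all 14 were among the 25 called members with one; it was in 17.9% of all 32851 windows. CCAAT, another motif of such promoters, was present for 18 of the 27 and in 37.4% of all windows. A member with several windows counts once, so shares of members and of windows are unlike measures. The E2F-type motifs TTTGGCGC and TTTCCCGC were in 2 and 5 of 23 replication and repair members, against 0.514% and 1.07% of windows. These windows of called cell cycle genes are shown because they carry the matches, which stand in capitals and are no evidence of a bound factor.
Ube2c, chr2:164769679-164769978, plus strand: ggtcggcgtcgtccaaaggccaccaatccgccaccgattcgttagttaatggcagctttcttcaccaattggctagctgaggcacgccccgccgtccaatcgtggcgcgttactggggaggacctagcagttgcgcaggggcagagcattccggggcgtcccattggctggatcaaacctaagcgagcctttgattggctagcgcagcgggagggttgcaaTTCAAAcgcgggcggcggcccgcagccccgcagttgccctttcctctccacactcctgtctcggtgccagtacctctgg
Cdk1, chr10:69352863-69353162, minus strand: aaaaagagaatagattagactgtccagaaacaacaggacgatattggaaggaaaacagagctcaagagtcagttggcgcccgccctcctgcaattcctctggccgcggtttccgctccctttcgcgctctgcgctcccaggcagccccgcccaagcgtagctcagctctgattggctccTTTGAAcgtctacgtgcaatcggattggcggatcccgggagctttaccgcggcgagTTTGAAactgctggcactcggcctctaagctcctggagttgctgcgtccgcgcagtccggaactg
Cdk1, the kinase that starts mitosis, was at 3.81 and 8.31 CPM in young Tconv and 37.7 and 37.7 CPM in the labelled ones (a log2 fold change of 2.65, edgeR adjusted p 0.0227 in 4 libraries).

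Genes that restrain the cell cycle went both ways. Cdkn1a, which encodes the kinase inhibitor p21, stood at 1.41 and 2.90 CPM in young Tconv and 16.0 and 16.2 CPM in the labelled ones (a log2 fold change of 2.92, SE 0.37, edgeR adjusted p 0.0202 in 4 libraries and 0.421 in 12). In Treg it was at 1.28 and 5.67 against 63.7 and 46.6 CPM. Macrophage, erythroid and neutrophil markers were also higher in labelled Treg, and their part in the Cdkn1a level was not tested. Cdkn2a, the locus of p16 and p19Arf, was at 0 and 0.273 against 2.08 and 1.83 CPM, from 0 and 5 counts against 43 and 38, and did not pass (edgeR adjusted p 0.0576 in 4 libraries and 0.476 in 12). Trp53, which encodes p53, was at 214 and 195 against 111 and 109 CPM and fell (a log2 fold change of -0.89, SE 0.07, edgeR adjusted p 0.00755 in 4 libraries). Lmnb1, the lamin of the nuclear envelope whose loss is used as a mark of senescence, was at 82.1 and 87.7 against 178 and 179.5 CPM and rose. Among 15 tested p53 targets 3 rose (Phlda3, Cdkn1a and Ei24) and 2 fell (Gadd45a and Sesn1), with a median of 0.11. The shares were 20% and 13.3%, against 7.08% and 5.15% of all genes. Mdm2 was at 182 and 170.5 against 178 and 184 CPM.

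Of the 30 tested genes of the CUL4 ligase and DCAF1 partners, 2 rose and 1 fell, 6.67% and 3.33% against 7.08% and 5.15% of all genes. The members called were Mcm10, a replication factor, at 1.55 and 3.55 against 13.3 and 15.7 CPM, Dtl, the receptor CDT2 of the same ligase, at 3.86 and 7.16 against 16.3 and 16.8 CPM, and Dcaf6, another receptor, at 79.3 and 72.5 against 56.9 and 59.2 CPM. Mcm10 and Dtl are also genes of S phase. Cul4a was at 85.1 and 86.1 against 83.9 and 87.5 CPM.

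Interferon-induced genes rose without exception among the members called: 22 of 36 rose and 0 fell (61.1%, against 7.08% of all genes, median log2 change 0.51). Oas3 and Oas1a, synthetases that activate RNase L on viral RNA, were at 65.2 and 60.3 against 115.5 and 114.6 CPM and at 29.7 and 34.3 against 71.0 and 69.1 CPM. For Oas1a the log2 fold change was 1.14 (SE 0.10, edgeR adjusted p 0.0106 in 4 libraries); Oas genes have near-identical copies, so the share of each is uncertain. Irf7, the transcription factor that amplifies type I interferon, was at 146 and 159 against 267 and 250.1 CPM. Zbp1, a sensor of Z-form nucleic acid, was at 159 and 168 against 258 and 249.5 CPM. These changes were small next to those of the cell cycle genes. Both labelled libraries lay above both young ones in each gene named. The same held for all 620 genes called higher, so it adds nothing to the calls, and the share over all genes tested is not given here.

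The interferon changes depended on the fit. DESeq2 on 12 libraries called 5 members higher, and edgeR called 0 without labelled library 1 or 2. With the sex term the list's median was 0.14. Macrophages also express these genes, and their markers summed to 32.5 and 349 CPM in young Tconv against 1297 and 1389 CPM in the labelled libraries; their part in the interferon levels was not tested. Guanylate-binding proteins and related GTPases, which attack vacuoles of intracellular pathogens, had 5 increases and 1 decrease among 11 members. The shares were 45.5% and 9.09%, against 7.08% and 5.15% of all genes. Their median of 0.63 turned to -0.09 with the sex term. Gbp2 was at 113 and 104 against 206 and 215 CPM and Gbp3 at 27.96 and 31.8 against 56.2 and 60.8 CPM. The decrease was Gvin1, a giant interferon-induced GTPase, at 763 and 696 against 206 and 184 CPM; it has near-identical copies.

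The core of the interferon-stimulated response element, GAAA repeated after a gap of 2 free bases, on either strand, was in the promoter windows of 13 of the 28 interferon members with a window, 7 of them among the 15 called, and in 3.44% of all windows. The gamma-activated site, TTCNNNGAA, was in 10 of the 28 and in 8.3% of all windows. Both windows shown here belong to called members and carry the first motif in capitals, overlapping in Oas1a and repeated in Ifit1.
Oas1a, chr5:120907476-120907775, minus strand: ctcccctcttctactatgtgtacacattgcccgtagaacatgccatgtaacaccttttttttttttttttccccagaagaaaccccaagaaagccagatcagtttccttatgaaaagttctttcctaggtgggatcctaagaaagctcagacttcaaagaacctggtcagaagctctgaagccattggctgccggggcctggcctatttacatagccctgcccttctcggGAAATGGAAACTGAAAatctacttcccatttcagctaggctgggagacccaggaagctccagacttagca
Ifit1, chr19:34640639-34640938, plus strand: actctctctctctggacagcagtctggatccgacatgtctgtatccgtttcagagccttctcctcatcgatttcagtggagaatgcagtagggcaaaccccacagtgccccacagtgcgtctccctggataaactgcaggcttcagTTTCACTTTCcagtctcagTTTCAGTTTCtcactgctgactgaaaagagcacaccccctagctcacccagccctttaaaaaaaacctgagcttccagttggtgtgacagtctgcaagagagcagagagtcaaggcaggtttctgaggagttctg
Ifit1, which binds viral RNA that lacks a host cap, was at 40.05 and 55.9 CPM in young Tconv and 83.0 and 89.1 CPM in the labelled ones (a log2 fold change of 0.85, edgeR adjusted p 0.0432 in 4 libraries).

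**Figure D2:**
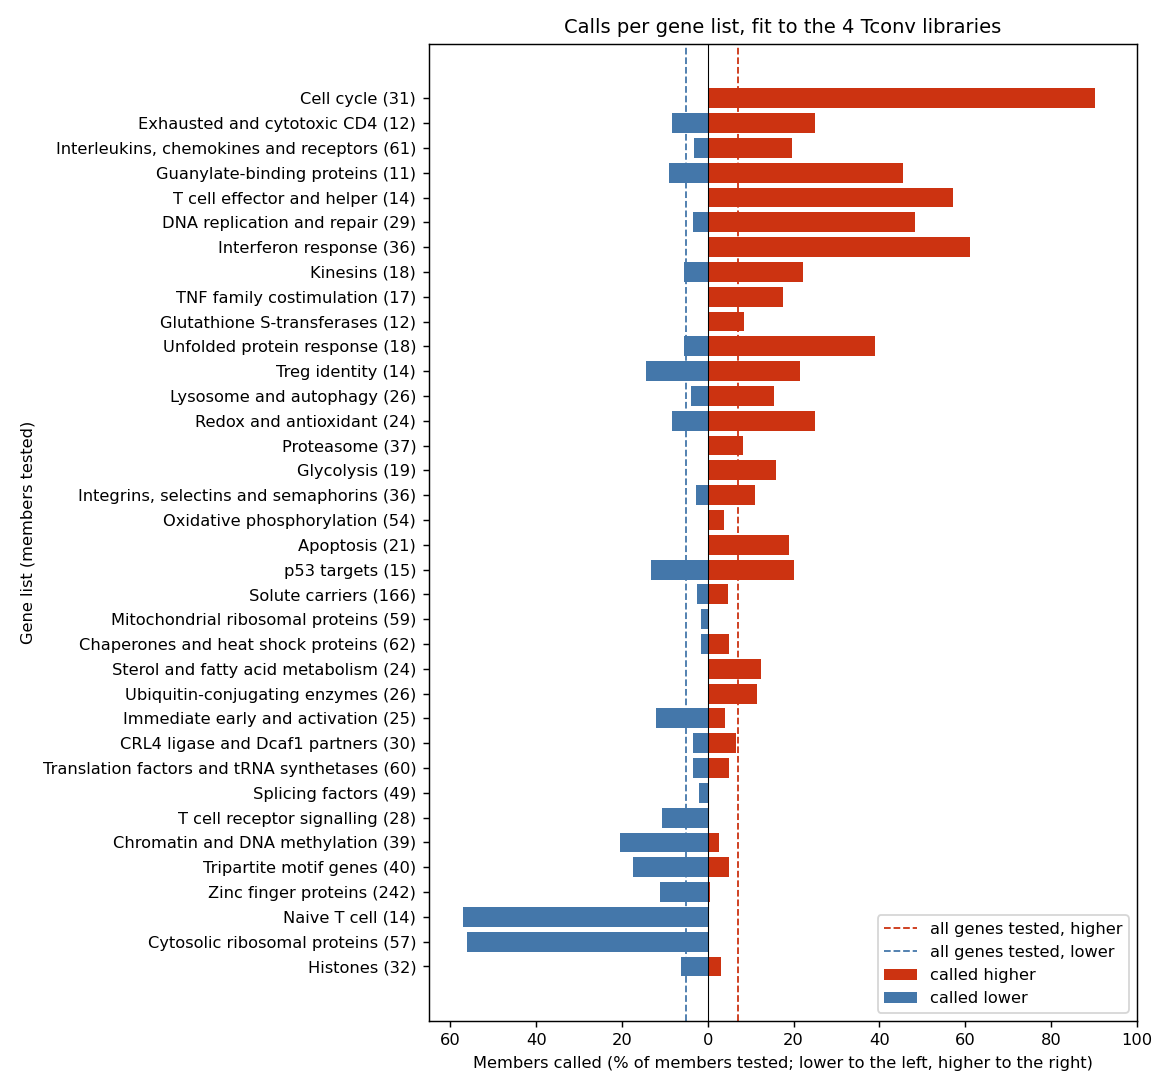
Share of tested members called lower (left, blue) and higher (right, red) for the gene families with at least 10 tested members, without the marker lists of other cells, ordered by median log2 fold change, from edgeR on the 4 libraries; dashed lines mark 5.15% and 7.08% of all genes tested. The bars for cell cycle (90.3% higher), interferon response (61.1% higher), effector and helper (57.1% higher), naive T cell (57.1% lower) and cytosolic ribosomal proteins (56.1% lower) reach well past the lines.

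Helper and effector genes were higher and naive genes lower. Of 14 tested autosomal effector and helper genes 8 rose and 0 fell (57.1%, against 7.08% of all genes, median log2 change 0.61). Tbx21, which encodes T-bet, the regulator of Th1 cells, was at 16.6 and 19.5 CPM in young Tconv and 56.6 and 54.1 CPM in the labelled ones (a log2 fold change of 1.63, SE 0.12, edgeR adjusted p 0.0069 in 4 libraries). Icos, a costimulatory receptor, was at 140.3 and 149 against 219 and 222 CPM, and Batf, an AP-1 factor of helper cells, at 43.6 and 40.6 against 64.8 and 61.8 CPM. Gata3 of Th2 cells was at 83.2 and 75.3 against 85.4 and 77.2 CPM, and Bcl6 of follicular helper cells at 39.7 and 49.7 against 46.3 and 48.1 CPM; neither passed. The list's median was 0.71 with the sex term, while Batf and Prdm1 turned to -0.13 and -0.24.

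Of 14 tested genes of naive T cells 8 fell and 0 rose (57.1% against 5.15% of all genes, median log2 change -0.29). DESeq2 on 12 libraries called 1 of them lower. Foxp1, a factor that holds naive T cells at rest, was at 460.1 and 427 CPM in young Tconv and 284 and 270.2 CPM in the labelled ones (a log2 fold change of -0.67, SE 0.06, edgeR adjusted p 0.011 in 4 libraries). Satb1, a chromatin organizer, was at 1097 and 1104 against 766 and 792 CPM, and Bach2, a repressor of effector genes, at 318 and 273 against 180.5 and 180.3 CPM. Als2cl, a guanine nucleotide exchange factor, was at 1431 and 1017 against 469 and 446 CPM, and it also lies within 5 Mb of Vprbp. S1pr1, the receptor for egress, was at 745 and 712.4 against 733 and 715 CPM and did not pass. In Treg the mean of log2(CPM + 1) over the list was 8.38 and 8.01 in the young libraries. It was 7.28 in labelled Treg 1, which read as male, and 7.28 in labelled Treg 2, which read as female. T cell markers were also lower in labelled Treg, summing to 2312 and 2164 against 5214 and 3419 CPM, and their part was not tested. With the sex term the list's median change in Tconv turned to 0.74, and Foxp1 and Bach2 turned to 0.46 and 1.24. The direction for naive genes thus depended on that term. The term is estimated from the groups that hold a library of each reading (aged Treg, aged Tconv and labelled Treg), and in both aged groups the library that read as female is also the only one tagged L3.

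Interleukins, chemokines and their receptors had 12 increases and 2 decreases among 61 tested autosomal members (19.7% and 3.28%, median log2 change 0.71). Over all genes the shares were 7.08% and 5.15%, so decreases in the list were no more frequent than among all genes. Ccr2, a chemokine receptor of effector T cells and monocytes, was at 31.3 and 48.3 CPM in young Tconv and 194 and 209 CPM in the labelled libraries. Il1r1 and Il1rl1, receptors for interleukin 1 and interleukin 33, were at 4.24 and 3.17 against 24.5 and 24.9 CPM and at 9.04 and 10.9 against 30.1 and 32.1 CPM. Il18r1, the partner of Il18rap, was at 219 and 162 against 453 and 466 CPM. Il22 and Il17a, cytokines of Th17-type cells, were at 0.612 and 0.328 against 4.45 and 3.99 CPM and at 1.08 and 1.04 against 2.95 and 2.74 CPM. The decreases were Il6ra and Il6st, the chains of the interleukin 6 receptor, at 423 and 430.2 against 301 and 308 CPM and at 539.9 and 569.6 against 369.8 and 379 CPM. The 2 chains of the interleukin 18 receptor were thus both higher and the 2 of the interleukin 6 receptor both lower; with the sex term Il6ra turned to 0.73.

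Among 12 tested genes of exhausted or cytotoxic CD4 cells 3 rose and 1 fell (25% and 8.33%, against 7.08% and 5.15% of all genes). Klrg1, an inhibitory receptor of terminally differentiated lymphocytes, was at 5.27 and 6.50 CPM in young Tconv and 43.8 and 46.2 CPM in the labelled ones (a log2 fold change of 2.94, SE 0.15, edgeR adjusted p 0.00348 in 4 libraries). Ccl5, a chemokine of cytotoxic cells, was at 39.8 and 71.7 against 246 and 240.3 CPM. Pdcd1, which encodes PD-1, was at 24.8 and 20.1 against 44.8 and 47.5 CPM, and Ctla4, another inhibitory receptor, at 168 and 156 against 129 and 120.0 CPM. With the sex term the list's median turned from 0.75 to -0.27, and Pdcd1 turned to -0.41. NK and CD8 T cell markers, some of which activated CD4 cells share, summed to 105 and 170.4 CPM in young Tconv and 275 and 306 CPM in the labelled libraries; their part was not tested.

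Treg identity genes had 3 increases and 2 decreases among 14 (21.4% and 14.3%, against 7.08% and 5.15% of all genes), and their median log2 change turned from 0.28 to -0.07 with the sex term. T cell receptor signalling genes had 0 increases and 3 decreases among 28 (10.7% lower, median -0.08). Immediate early genes had 1 increase and 3 decreases among 25 (4% and 12%, median -0.03). Itgae, the integrin CD103, was at 12.5 and 21.1 CPM in young Tconv against 65.0 and 66.3 CPM, and Capg, an actin-capping protein, at 58.1 and 70.6 against 137 and 133 CPM. Cd247, the CD3 zeta chain, was at 673 and 628 against 521 and 529 CPM. Myc, a driver of growth, was at 113 and 115 against 76.1 and 80.1 CPM, and Tnf at 29.4 and 40.7 against 66.5 and 61.3 CPM.

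**Figure D3:**
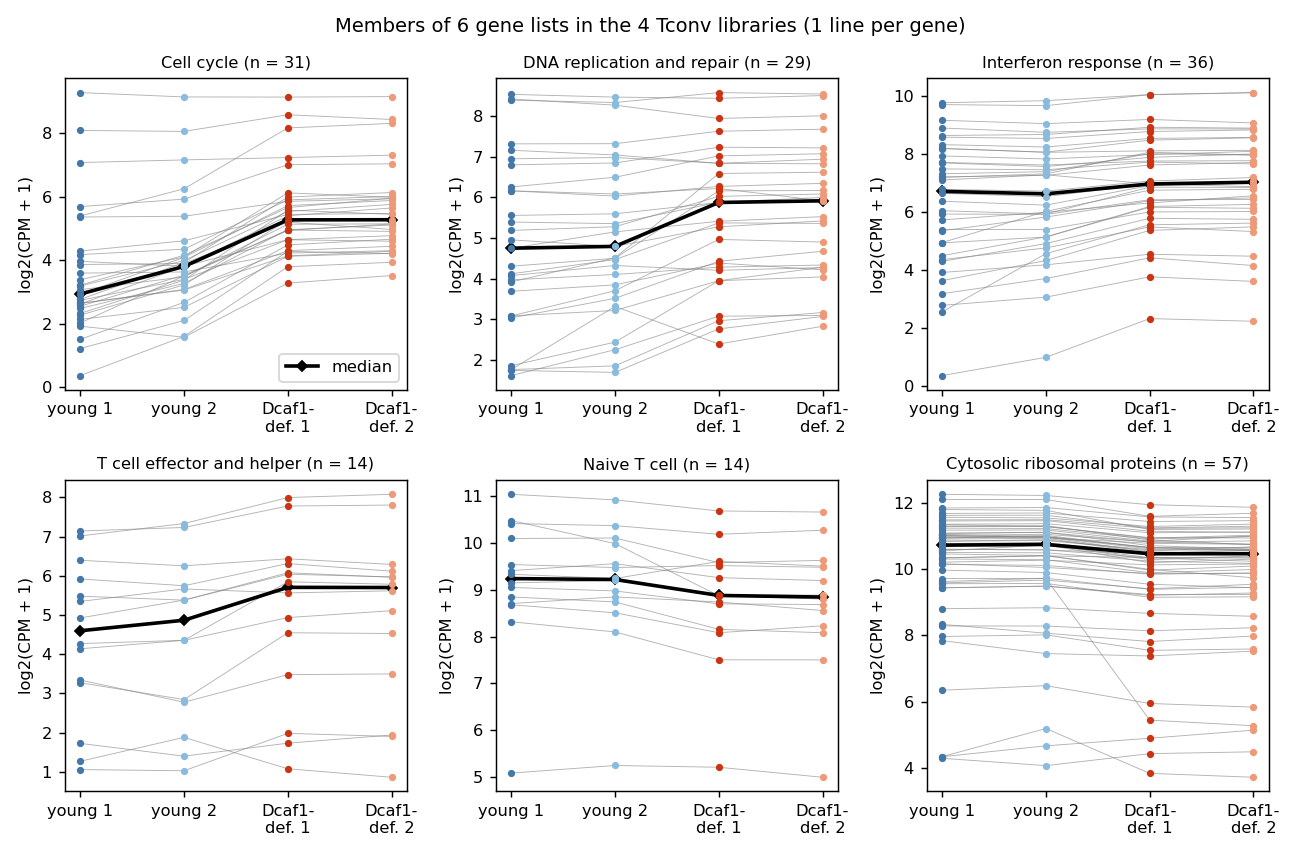
Tested autosomal members of 6 gene lists in the 4 libraries, as log2(CPM + 1), with 1 line per gene and the median in black. The cell cycle panel steps up between the young and the labelled libraries and also differs between the young libraries; the ribosomal panel shows a small shared step down and the separate drop of Rpl29.

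Genes of the cytosolic ribosome were lower as a group. Of 57 tested autosomal members 32 fell and 0 rose (56.1%), 55 had a negative change and the median was -0.29. DESeq2 on 12 libraries called 3 members lower. Apart from Rpl29, Rpl12 had the smallest p, at 3549 and 3484 CPM in young Tconv and 2337 and 2360.5 CPM in the labelled ones (a log2 fold change of -0.57, SE 0.05, edgeR adjusted p 0.0113 in 4 libraries). Rpl13 was at 1999 and 1994 against 1455 and 1412 CPM and Rps20 at 1913 and 1943 against 1419 and 1421 CPM. With the sex term the median was -0.05. The motif CTTTCC was present for 26 of the 42 ribosomal members with a promoter window, and for 12 of the 23 called ones. It was in 26.6% of all windows. Mitochondrial ribosomal proteins had 0 increases and 1 decrease, Mrpl48, among 59 (1.69% lower), with a median of 0.03. The subunits of oxidative phosphorylation had 2 increases and 0 decreases among 54 (3.7% higher), with a median of 0.13. Of all genes 7.08% rose and 5.15% fell.

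Chromatin regulators and zinc finger genes also leaned down. Of 39 tested autosomal chromatin genes 8 fell and 1 rose (20.5% and 2.56%, against 5.15% and 7.08% of all genes, median log2 change -0.15). DESeq2 on 12 libraries called 0 of these genes. Kmt2d and Kmt2c, the methyltransferases that mark enhancers, were at 1162 and 1070 CPM in young Tconv against 585 and 522 CPM and at 783 and 792 against 449.6 and 499 CPM. For Kmt2d the log2 fold change was -1.001 (SE 0.08, edgeR adjusted p 0.00831 in 4 libraries). Tet3, an oxidase of methylated DNA, was at 343 and 337 against 241 and 230.3 CPM. The increase was Ezh2, the methyltransferase of the Polycomb complex, at 74.0 and 74.9 against 105 and 109.7 CPM. Of 242 tested zinc finger genes 27 fell and 1 rose (11.2% and 0.413%, median -0.21), and DESeq2 on 12 libraries called 6 lower and 0 higher. Zfp36l2, an RNA-binding protein that destabilises AU-rich mRNAs, was at 2520 and 2275 against 1149 and 1108 CPM.

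Of 18 tested genes of the unfolded protein response 7 rose and 1 fell (38.9% and 5.56%, against 7.08% and 5.15% of all genes, median log2 change 0.32). The median was 0.14 with the sex term, and DESeq2 on 12 libraries called 0 of these genes. The chaperone Hsp90b1 was at 619 and 580.4 CPM in young Tconv against 802 and 899 CPM, Calr, calreticulin, at 584 and 547 against 744 and 803 CPM, and Ern1, the sensor IRE1, at 16.9 and 22.3 against 39.0 and 40.4 CPM. Plasma cells are rich in such transcripts, and B and plasma cell markers summed to 750 and 3111 CPM in young Tconv against 3643 and 3833 CPM in the labelled libraries; their part was not tested. Redox genes had 6 increases and 2 decreases among 24 (25% and 8.33%), with a median of 0.21. Nfe2l2, which encodes NRF2, the regulator of antioxidant genes, was at 127 and 120.0 against 77.4 and 75.7 CPM, while its known targets Txn1 and Srxn1 were at 80.6 and 91.9 against 137 and 139 CPM and at 1.18 and 1.20 against 4.30 and 4.09 CPM. Glutathione S-transferases had 1 increase and 0 decreases among 12 (8.33% and 0%).

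Vprbp lies on chromosome 9 (RefSeq, GRCm38.p6, chr9:106814169-106880992). Of 79 genes tested within 2 Mb of it 8 rose and 11 fell, or 24.1% called, against 19.4% of the 439 genes of chromosome 9, these included, and the 7.08% and 5.15% of all genes; the difference from the chromosome was not tested. The lower genes included Rpl29, Mst1, Abhd14b, Abhd14a (7.25 and 6.28 CPM in young Tconv, 2.18 and 2.64 CPM in the labelled libraries) and Dusp7, an ERK phosphatase (79.1 and 81.6 against 48.3 and 47.3 CPM). The higher genes included Col6a4, a collagen VI chain, at 0.377 and 0.437 against 37.4 and 37.1 CPM (a log2 fold change of 6.51, SE 0.18, edgeR adjusted p 0.00042 in 4 libraries). They also included Cish, an inhibitor of cytokine signalling induced by STAT5, at 39.7 and 40.1 against 93.0 and 88.8 CPM, Bsn at 6.07 and 6.28 against 22.2 and 20.5 CPM, and Cacna2d2, a calcium channel subunit, at 3.20 and 3.93 against 11.2 and 12.6 CPM. These 4 genes and Tmem108 below were named after their values were seen. Within 5 Mb 31 of 136 genes were called, 3 of them the neutrophil genes Camp, Ngp and Ltf. They included Tmem108, at 8.94 and 8.80 against 0.338 and 0.481 CPM. Calls near Vprbp thus went in both directions, and Vprbp itself was not called.

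**Figure D4:**
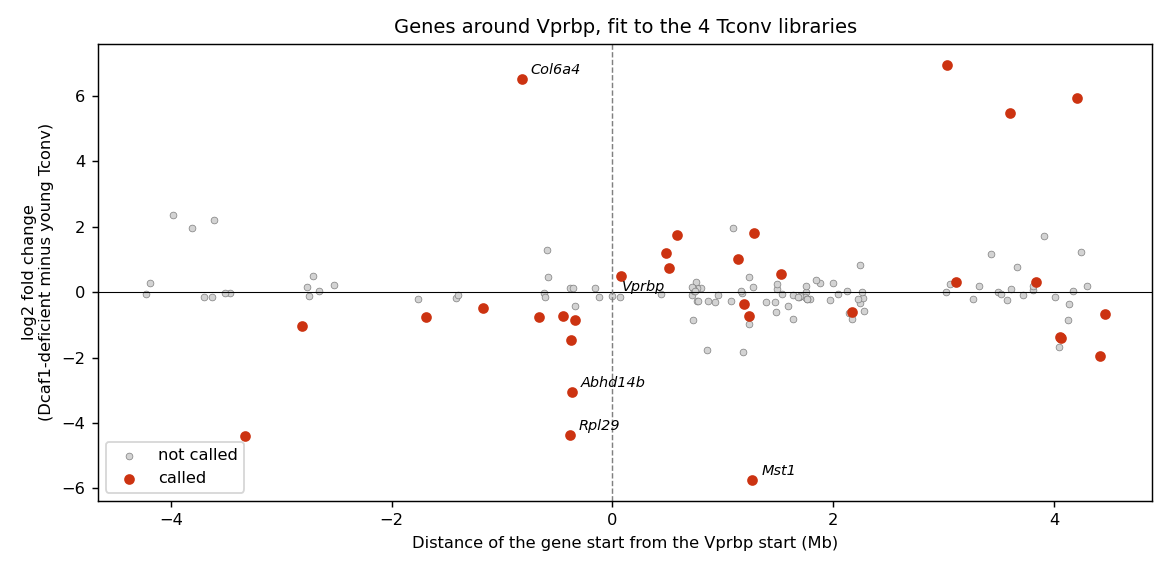
Log2 fold change of tested genes within 5 Mb of Vprbp on chromosome 9, by distance of their starts, from edgeR on the 4 libraries; called genes are red. Large changes of both signs (Col6a4 6.51, Rpl29 -4.37, Mst1 -5.75) lie within 2 Mb of Vprbp, which is near 0; the 3 red points above 5 on the right are neutrophil genes.

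A cluster on chromosome 7 was picked out after the values were seen, around Trim12a (chr7:104299893-104315558). Within 2 Mb 8 of 20 tested genes were called, 1 higher and 7 lower (40%), against 13.4% of the genes of chromosome 7. Trim5, a restriction factor for retroviruses, was at 35.0 and 46.8 CPM in young Tconv and 3.63 and 3.08 CPM in the labelled libraries, and Trim30d at 54.2 and 65.7 against 12.8 and 11.2 CPM. Trim34b went the other way, at 1.93 and 1.64 against 23.5 and 27.99 CPM. Gvin1 lies in the same stretch, and Mrpl48 and Inppl1 within 5 Mb, where 16 of 54 genes were called. These Trim genes are close paralogues, so the authors' estimates could divide reads among them. Labelled Treg libraries differed from each other at Trim12a, at 37.0 and 7.73 CPM, and at Mrpl48, at 10.4 and 2.33 CPM.

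Transcripts of other cell types are given apart, since they cannot be told from genes that T cells switched on in bulk RNA, where fewer cells of a type and less RNA per cell also look alike. Macrophage markers summed to 32.5 and 349 CPM in young Tconv and 1297 and 1389 CPM in the labelled libraries, with positive changes in 15 of 15 tested markers but 1 call, Fcgr1. Erythroid markers had 8 calls of 15, all higher (53.3%, against 7.08% of all genes). Alas2, the enzyme that starts haem synthesis in red cell precursors, was at 0.329 and 2.08 CPM in young Tconv and 31.7 and 33.3 CPM in the labelled libraries. Neutrophil markers summed to 38.45 and 45.14 CPM in young Tconv and 88.31 and 99.39 CPM in the labelled libraries. They had 7 calls of 12, all higher (58.3%, against 7.08% of all genes). Of the markers described, 8 and 4 were at 0 in young Tconv 1 and 2, and a marker at 0 in both could only be called higher. Ngp was at 0.141 and 0.328 against 10.7 and 10.2 CPM. Mpo, the myeloperoxidase of their precursors, was at 0 and 0.0546 against 2.66 and 3.22 CPM, with both young values under the floor of 3 counts. B and plasma cell markers had 0 calls of 14 by edgeR in the 4 libraries, with positive changes in all 14; young Tconv 2, at 3111 CPM in sum, lay near the labelled libraries. Dendritic cell markers summed to 254 and 639.7 against 839 and 867 CPM. NK and CD8 T cell markers had 2 increases, Klrk1 and Klrc1, and 1 decrease, Klrb1c, at 24.3 and 33.2 against 12.7 and 14.3 CPM.

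Of the markers described, those at 0 in both young libraries were Tspo2 (erythroid), Ly6g, Ms4a3 and Prtn3 (neutrophil), Pf4 and Ppbp (platelet) and Ccl21a, Col3a1, Des and Pdgfrb (stromal). Platelet and stromal lists summed to 255 and 253 against 234 and 249 CPM and to 331 and 373 against 345 and 361 CPM. Though the sums were near level, 1 of 5 tested platelet and 1 of 6 tested stromal markers were called higher. These shares were 20% and 16.7%, against 7.08% of all genes, and the median log2 changes were -0.10 and 1.2. Stromal markers at 0 numbered 6 and 6 in young Tconv and 3 and 2 in the labelled libraries. Pancreatic acinar markers summed to 0.471 and 24.05 CPM in young Tconv and 32.7 and 38.8 CPM in the labelled libraries. Leaving the listed markers out, 575 autosomal genes were called higher and 430 lower; the lists do not hold every gene those cells express.

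**Figure D5:**
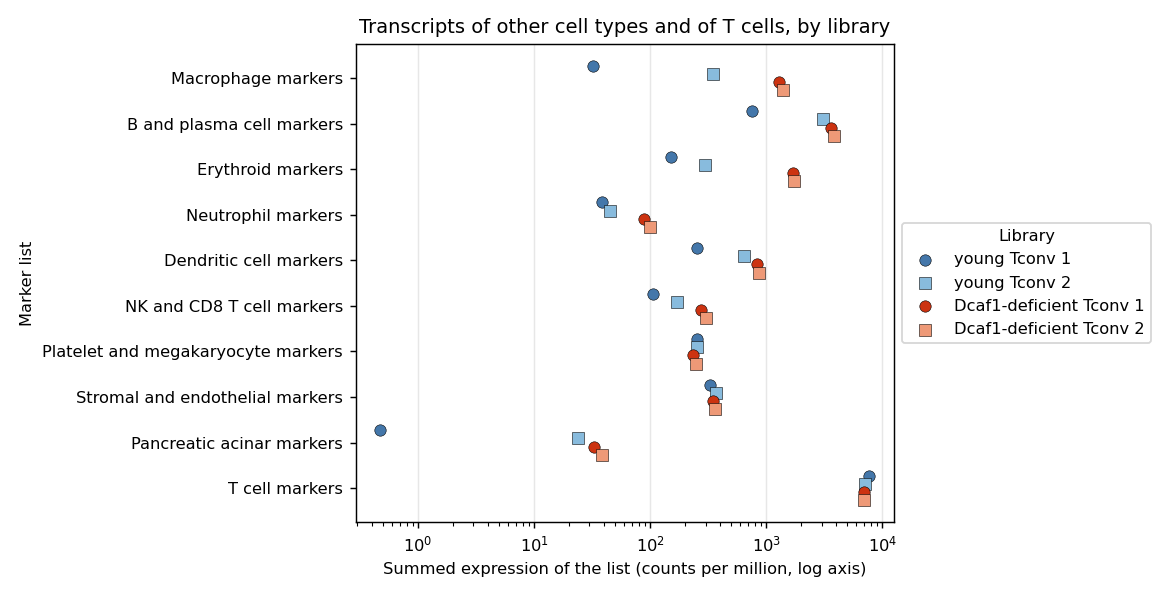
Summed CPM of marker lists by library on a log axis. The labelled libraries (red) lie above both young libraries (blue) for macrophage, erythroid and neutrophil markers; young Tconv 2 lies near them for B cell and pancreatic markers, and T cell markers lie together at 7016 to 7759 CPM.

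X-linked and Y-linked genes, where sex and the label coincide, held 22 of the genes called higher and 18 of those called lower. Of 362 tested X-linked genes 22 rose and 14 fell (6.08% and 3.87%, against 7.08% and 5.15% of all genes). Of 5 tested Y-linked genes 4 fell. Besides Xist, the X-linked Cxcr3, a chemokine receptor of Th1 cells, was at 61.2 and 60.1 CPM in young Tconv and 131 and 128 CPM in the labelled libraries. Kdm6a, a histone demethylase that escapes X inactivation, was at 132 and 129.5 against 204 and 212 CPM. Tsc22d3, a glucocorticoid-induced regulator, was at 1088 and 1002 against 669 and 679 CPM. Y-linked Ddx3y was at 331 and 239 against 0.145 and 0.337 CPM.

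Whether the label had another effect in Tconv than in Treg was tested as a difference of differences over the 12 libraries. By edgeR 0 of 9495 genes passed, 260 had an unadjusted p under 0.05, and the smallest adjusted p was 1.0; DESeq2 called 1 gene, Clasp1, a microtubule-binding protein. For Ctse the difference was -0.80, for Rpl29 0.10 and for Cdkn1a -1.04 on the log2 scale (edgeR adjusted p 1.0 for each). A p that misses the threshold does not show that the effects are alike.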

How the data were processed

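Messenger RNA of sorted T cells from mouse spleen was sequenced after poly(A) enrichment, per the labels' protocols. One deposited table holds estimated counts by gene: the authors ran Salmon 0.9.1 on mm10, per the submitters' processing notes, and tximport, per the file name. They also deposited values on a log2 scale made with DESeq2, per the submitters' processing notes; the exact transform and the transcript annotation are not given in the sources used here.

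Estimated counts were rounded and tested in R 4.3.3 with edgeR 4.0.16 (TMM, filterByExpr, quasi-likelihood test, Benjamini-Hochberg over all genes tested, threshold 0.05). The planned main fit held all 12 libraries as 6 group means (6 residual degrees of freedom), and another planned fit held the 4 libraries alone (2). DESeq2 1.42.0 and limma 3.58.1 (limma-trend, on the deposited log2 values) were alternatives. The table holds 13404 genes, 11486 with a count, of which 11456 were matched to RefSeq (GRCm38.p6) for positions. The scripts were tested on simulated data. SEs come from the fitted dispersion.

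Always named were Vprbp, Rpl29, Mst1, Cdkn1a, Cdkn2a, Foxp3 and Il2ra. Further genes were the 12 of smallest p per direction among autosomal genes of at least 4 CPM in the higher group with groups that do not overlap, without unnamed genes, receptor segments and markers of other cells, since none was called in 12 libraries. Examples were, per list, called members of smallest adjusted p in the 4-library fit; other members were named after their values were seen. 1 of the 12 lower genes and some list members are not reported here, though the counts hold them. The 49 gene lists hold 38 families, whose members on X, Y or the lists of 9 other cell types were left out, and 2 label checks. Members, lists and rules were chosen with earlier results of these data known. Leading with the 4-library counts, the sex term, the motifs, the window around Trim12a and the set beside Treg were chosen after the values were seen; 7 motifs were searched and all are reported. Also tried were RLE size factors, all genes without the low-count filter, other sets of libraries, a replicate block, a term for the title tag, leaving out each library and a log2 change of at least 1.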

Additional observations from a re-analysis of the deposited data

How the results depend on the processing

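With all 12 libraries, edgeR called 0 genes higher and 0 lower under RLE size factors, no low-count filter, the replicate block, the title-tag term, a log2 change of at least 1 and without each of the 4 libraries in turn (0 to 0). The sex term called 0 higher and 1 lower (Ctse), limma-trend on the deposited log2 values 6 and 5, edgeR on the 6 Tconv libraries 9 and 7, edgeR on the 8 young and labelled libraries 97 and 39, DESeq2 150 and 66, and edgeR on the 4 libraries 620 and 451. Within the 4 libraries, counts higher and lower were 627 and 448 with RLE size factors, 525 and 333 with no filter, 1046 and 878 with DESeq2, 160 and 86 with the replicate block and 342 and 63 at a log2 change of at least 1. Leaving out 1 library gave 1 to 2321 higher and 5 to 1978 lower, the low ends without labelled library 1 and the high ends without young Tconv 2; a lone library is there assumed to vary like its opposite group. Same-numbered libraries of the groups share only a number: their deviations correlated at r = 0.12 over 8138 genes, with 2 pairs, and the replicate block lowered the 4-library calls while changing no call in 12 libraries. The difference between the Tconv and Treg effects called 0 genes under each edgeR setting run for it and 1 under DESeq2; limma-trend was not run for it. Of 406 values of 29 named genes under alternatives, 318 kept their direction and side of the threshold, 85 passed it and 3 reversed. None could lose it, since the fit to 12 libraries called 0 genes. For the same reason a log2 change of at least 1 could only leave 0 there. The reversals were Foxp3 at -0.43 with the sex term, and Il2ra at -0.35 with the title-tag term and -0.35 without young Tconv 1. For Il2ra, leaving out each library in turn gave -0.35 to 0.63. The causes were not tested. At 3 counts, floors of 0.141 to 0.164 CPM limit low genes such as Mst1 and Cdkn2a.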

Other observations

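Of 26 tested lysosomal and autophagy genes 4 rose, and the 1 that fell was Ctse. Ctsa, a protective carboxypeptidase, was at 234 and 251 CPM in young Tconv against 377 and 367 CPM, Ctsd, an aspartic protease related to cathepsin E, at 448 and 468 against 659 and 685 CPM, and Ctsc, which activates granzymes, at 83.7 and 94.0 against 140.3 and 142 CPM. Macrophages are rich in these cathepsins, and their part was not tested. Apoptosis genes had 4 increases and 0 decreases among 21, with a median log2 change of 0.12: Apaf1, the core of the apoptosome, was at 83.6 and 91.6 against 126 and 125 CPM, Bak1, a pore former of the mitochondrial membrane, at 71.6 and 68.9 against 97.0 and 94.7 CPM, and Bcl2l1, its opponent BCL-XL, at 22.1 and 29.2 against 44.4 and 45.7 CPM.

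Glycolysis had 3 increases and 0 decreases among 19; Gapdh was at 1031 and 1073 CPM in young Tconv and 1380 and 1362 CPM in the labelled libraries, so it was not level between the groups. The proteasome had 3 increases and 0 decreases among 37, of which Psme2 and Psmb8 belong to the form induced by interferon, at 358 and 356 against 443 and 459.5 CPM and at 399 and 409.6 against 487 and 477 CPM. Integrins and related adhesion molecules had 4 increases and 1 decrease among 36: Itga9 was at 5.74 and 8.91 against 22.6 and 22.9 CPM, and Itga6, the laminin receptor chain, at 299 and 281 against 180.3 and 191 CPM. All counts are from edgeR on the 4 libraries, where 7.08% of genes rose and 5.15% fell.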
